A study of Mus musculus with 36 samples.

Results

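The 10 genes described here encode Toll-like receptors of the mouse, and were taken by symbol (Tlr1, Tlr2, Tlr3, Tlr4, Tlr5, Tlr6, Tlr7, Tlr8, Tlr9 and Tlr13) from the 24421 genes in the count files. All 10 were found in every file. The 36 libraries came from Apoe ko mice, which lack apolipoprotein E and develop arterial plaques when fed cholesterol, and the controls carried the same deletion. They fall into 9 groups of 4: macrophages from the digested aorta, monocytes from blood and spleen, and macrophages from peritoneal lavage, each sorted by flow cytometry. Mice on chow gave the baseline groups, 1 month of a high cholesterol diet the early groups and 6 months of it the advanced groups. The labels give no age and do not tie a library to a mouse, so the p-values measure the spread between these libraries.

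Toll-like receptors are membrane proteins of the innate immune system that bind conserved microbial molecules, and some also respond to products of damaged or dying cells. Those at the cell surface (the TLR2 dimers with TLR1 or TLR6, TLR4 and TLR5) bind lipoproteins, lipopolysaccharide and flagellin, while those in endosomes (TLR3, TLR7, TLR8, TLR9 and TLR13) bind RNA or DNA and need the chaperone UNC93B1 to leave the endoplasmic reticulum. All of them except TLR3 signal through the adaptor MYD88 to NF-kB and interferon regulatory factors, and in the artery wall TLR2 and TLR4 are the members most studied in plaque formation.

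Tlr1 (chr5:64924680-64933600, minus strand, GRCm38.p6) and Tlr6 (chr5:64953092-64970942, minus strand) are neighbours on the genome, and their transcripts share sequence that bears on how far their counts can be told apart. Of the 50-base words in the longest coding transcript (GENCODE vM21), 15.3% of those of Tlr1 also occur in Tlr6, and 12.5% of those of Tlr6 occur in Tlr1. The other 8 members share no 50-base word with another Toll-like receptor. The longest run the 2 transcripts have in common is 229 bases, inside the coding part of both, and is shown because a read that falls wholly within it belongs to either gene.
Tlr1 and Tlr6: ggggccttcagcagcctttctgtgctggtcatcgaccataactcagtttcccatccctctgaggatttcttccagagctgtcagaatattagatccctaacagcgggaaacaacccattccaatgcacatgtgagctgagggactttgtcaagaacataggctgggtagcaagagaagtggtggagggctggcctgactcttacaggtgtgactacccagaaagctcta
How the authors' counting treated such reads is not given in the sources used here, so counts of Tlr1 and Tlr6 are uncertain to that extent. Tlr3 (chr8:45395665-45411075, minus strand) overlaps the exons of 1 gene on the other strand, Gm45542, and the use of strand in counting is not stated.

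The promoters of 3 members are shown because their transcripts separate the populations in the comparisons that follow: Tlr2, highest in the aorta, and Tlr9 and Tlr13, highest in monocytes. RefSeq promoter windows of GRCm38.p6 (250 bases before to 50 after the start given by the promoter entry) matched 8 of the 10 members, in 10 entries. The start of an entry can differ from the annotated start of its gene. Tlr4 and Tlr7 had none. The windows were searched on both strands for the PU.1 core GAGGAA (present in 28.3% of 32851 windows of the same length), AP-1 TGANTCA (7.81%), C/EBP TTGCNNAAT (2.40%) and CRE TGACGTCA (1.79%). Capitals mark the matches.
Tlr2 (chr3:83841559-83841858, minus strand): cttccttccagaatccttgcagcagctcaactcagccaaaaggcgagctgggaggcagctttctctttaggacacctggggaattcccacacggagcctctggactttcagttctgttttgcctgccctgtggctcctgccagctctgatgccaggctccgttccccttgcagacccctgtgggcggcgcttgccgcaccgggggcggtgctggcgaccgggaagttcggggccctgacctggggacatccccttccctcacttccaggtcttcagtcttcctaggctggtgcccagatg
Tlr9 (chr9:106222348-106222647, plus strand): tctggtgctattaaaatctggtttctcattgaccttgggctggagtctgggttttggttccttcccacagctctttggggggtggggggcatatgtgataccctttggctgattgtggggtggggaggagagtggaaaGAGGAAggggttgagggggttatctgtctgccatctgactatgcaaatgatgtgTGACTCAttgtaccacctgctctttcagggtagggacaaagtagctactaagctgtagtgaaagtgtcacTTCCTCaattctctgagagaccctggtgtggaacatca
Tlr13 (chrX:106143025-106143324, plus strand): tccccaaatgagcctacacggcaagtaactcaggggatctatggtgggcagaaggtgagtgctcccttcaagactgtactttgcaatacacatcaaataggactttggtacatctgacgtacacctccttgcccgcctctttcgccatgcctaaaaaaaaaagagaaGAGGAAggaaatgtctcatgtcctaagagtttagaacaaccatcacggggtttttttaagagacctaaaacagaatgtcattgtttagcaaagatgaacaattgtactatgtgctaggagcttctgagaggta
The Tlr9 window holds a PU.1 core 112 bases before the start, another on the opposite strand 12 bases after it, and an AP-1 match 58 bases before it. The Tlr13 window holds 1 PU.1 core, 83 bases before the start, and the Tlr2 window holds none of these letters. Most of the Tlr2 window lies inside the annotated gene (chr3:83836272-83841824), while the Tlr9 and Tlr13 windows lie about the annotated gene starts. The Tlr2 window is thus not a like region to the others. Among the other members, Tlr1 and Tlr8 each had a PU.1 core in a window, and Tlr3, Tlr6 and Tlr8 each had a C/EBP match. A match is a description of the letters only.

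Library totals bear on every stage comparison. Baseline libraries held 5278901 to 14771799 counted reads, early ones 1311757 to 2628766 and advanced ones 942899 to 2468285. Baseline totals were higher than early and advanced totals in each population (exact permutation test, two-sided, p = 0.0286, the smallest that 4 against 4 libraries allow), so depth and a step away from baseline cannot be told apart. Of the 36 libraries, 6 stood apart from their groups in earlier results of these data (aortic baseline 3 and 4, aortic advanced 1, monocyte advanced 3, peritoneal early 1 and 2). Calls of a member that ended or began without these libraries are given beside its values. The 7 macrophage markers summed to 7639 to 12323 CPM (counts-per-million, a gene's reads scaled by the library total) in the aorta, 2836 to 4627 CPM in the peritoneum and 1721 to 2787 CPM in monocytes. The 5 large peritoneal macrophage markers, Gata6 among them, summed to 4092 to 17523 CPM in the peritoneal libraries against 414 to 1491 CPM in the aorta and 138 to 255 CPM in monocytes. The 7 monocyte markers summed to 4033 to 6154 CPM in monocytes, which overlapped the 3549 to 5047 CPM in the peritoneum, and to 1426 to 2273 CPM in the aorta. A sum follows its most abundant genes. By the mean of log2(CPM + 1) over the 7 markers, monocytes (8.84 to 9.52) lay above the peritoneum (3.41 to 6.73) and the aorta (4.89 to 7.03) without overlap. The aortic sorts also held fibroblast markers (8.89 to 1058 CPM), and the monocyte sorts held neutrophil markers (177 to 28552 CPM). In bulk samples such as these, fewer cells of a type and less RNA per cell cannot be told apart.

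The question of how the receptors differ between tissues was put to each pair of populations, averaged over the stages. Monocytes, the circulating precursors of many tissue macrophages, held the most Tlr7, Tlr9 and Tlr13. Aortic macrophages held the most Tlr2 and Tlr5, and both macrophage populations held more Tlr3 and Tlr4 than monocytes. Tlr9 and Tlr5 were close to absent from peritoneal macrophages. Each comparison was fitted on the 24 libraries of the 2 populations with edgeR's quasi-likelihood test on counts, with Benjamini-Hochberg adjustment over all genes and a two-sided threshold of 0.05. Fold changes are on the log2 scale with the standard error. Each population takes part in 2 of the 3 comparisons, so these share libraries.

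**Figure D1:**
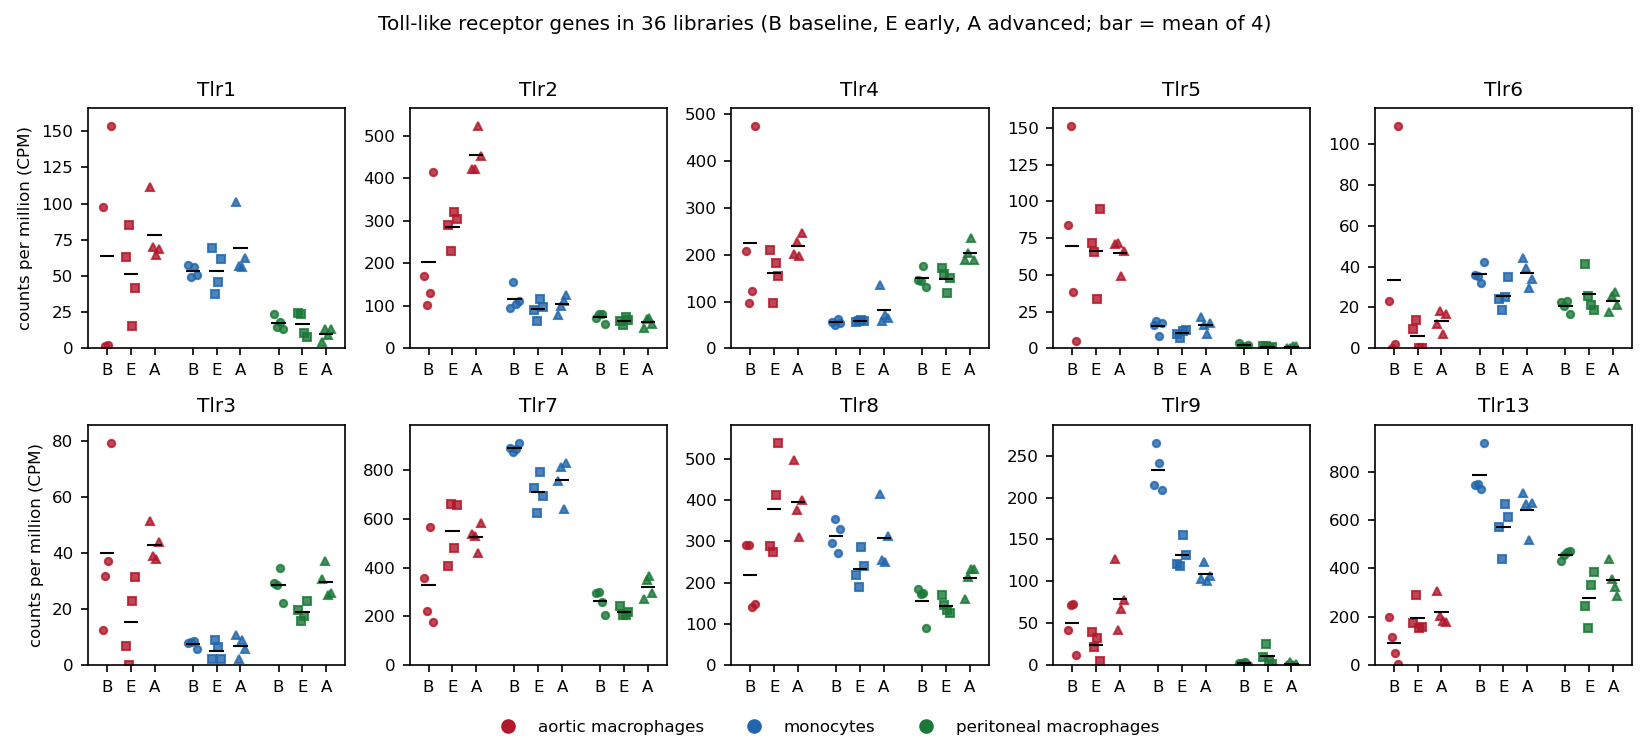
CPM of each of the 10 genes (panels) in each of the 36 libraries (points) by population (colour) and stage (B baseline, E early, A advanced), with the mean of 4 as a bar. Cell surface receptors are in the upper row and endosomal ones in the lower. Tlr9 and Tlr13 are highest in monocytes, Tlr2 in the aorta. Aortic baseline points scatter widely, from 1.44 to 153 CPM for Tlr1.

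Of the receptors at the cell surface, Tlr2 (chr3:83836272-83841824, minus strand), whose product binds bacterial lipoproteins, ran from 102 to 523 CPM (median 312) in the 12 aortic libraries. It ran from 65.7 to 155 CPM (median 103) in monocytes and from 48.1 to 81.7 CPM (median 68.1) in peritoneal macrophages. Every aortic library lay above every peritoneal library, while the lowest aortic ones fell inside the monocyte range. Tlr2 was higher in the aorta than in monocytes (log2 fold change 1.54 ± 0.19, adjusted p = 4.33e-07) and than in the peritoneum (log2 fold change 2.12 ± 0.20, adjusted p = 2.63e-09). It was lower in the peritoneum than in monocytes (log2 fold change -0.45 ± 0.11, adjusted p = 9.07e-04), a call that ended in the fit of all 36 libraries (-0.42, adjusted p = 0.0719).

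Tlr4 (chr4:66827551-66846581, plus strand), the receptor for lipopolysaccharide, ran from 96.7 to 474 CPM (median 200.1) in the aorta and from 119 to 236 CPM (median 164) in the peritoneum. In monocytes it ran from 50.3 to 135 CPM (median 58.7), and only the highest monocyte library, advanced 1, reached the macrophage ranges. It was higher than in monocytes in both aortic (log2 fold change 1.65 ± 0.23, adjusted p = 1.95e-06) and peritoneal macrophages (log2 fold change 1.55 ± 0.10, adjusted p = 9.19e-13). The macrophage populations differed by 0.22 ± 0.21 (adjusted p = 0.515) from each other, which did not pass.

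Tlr5 (chr1:182954752-182976044, plus strand), the flagellin receptor, had the widest range between populations of the surface receptors. It ran from 4.93 to 151 CPM (median 68.6) in the aorta, from 7.09 to 21.2 CPM (median 14.2) in monocytes and from 0 to 3.64 CPM (median 1.51) in the peritoneum, where 2 of 12 libraries had no read and all 12 together held 115 reads. Aortic and peritoneal libraries did not overlap, nor did monocyte and peritoneal ones. The aorta was above monocytes (log2 fold change 2.29 ± 0.37, adjusted p = 2.26e-05) and above the peritoneum (log2 fold change 5.53 ± 0.53, adjusted p = 3.03e-09), and the peritoneum was below monocytes (log2 fold change -3.11 ± 0.29, adjusted p = 1.18e-09).

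Tlr1 and Tlr6, the partners of TLR2 in its heterodimers, had aortic ranges that overlapped those of both other populations. Tlr1 ran from 1.44 to 153 CPM (median 66.5) in the aorta, from 37.8 to 101 CPM (median 56.8) in monocytes and from 4.37 to 24.3 CPM (median 13.5) in the peritoneum. Peritoneal libraries all lay below the monocyte libraries (log2 fold change -1.81 ± 0.17, adjusted p = 1.10e-09), and the aorta was above the peritoneum (log2 fold change 2.10 ± 0.52, adjusted p = 0.0027) but not called against monocytes (log2 fold change 0.14 ± 0.46, adjusted p = 0.873). With limma-voom the difference between aorta and peritoneum missed the threshold (1.21, adjusted p = 0.0629, with quality weights, and 1.36, adjusted p = 0.0805, with 1 weight per population). Tlr6 ran from 0 to 109 CPM (median 10.9) in the aorta, from 18.9 to 44.3 CPM (median 34.6) in monocytes and from 17.05 to 41.3 CPM (median 22.1) in the peritoneum. The ranges overlapped, and Tlr6 was lower in the peritoneum than in monocytes only narrowly (log2 fold change -0.28 ± 0.12, adjusted p = 0.0473): 7 of 9 other settings and 18 of 24 fits that left a library out did not call it, and in those that left a library out the adjusted p reached 0.119. The aorta differed by -1.22 ± 0.66 (adjusted p = 0.181) from monocytes and by -0.81 ± 0.66 (adjusted p = 0.445) from the peritoneum, which did not pass. Aortic baseline library 4 held 109 CPM of Tlr6 when the other 3 held 0.240 to 23.4 CPM, and without it both aortic differences passed (-1.87, adjusted p = 0.0157 and -1.58, adjusted p = 0.0497). Limma-voom called both with larger folds, against monocytes (-3.00, adjusted p = 0.00123, with quality weights, and -2.65, adjusted p = 0.0191, with 1 weight per population) and against the peritoneum (-2.58, adjusted p = 0.00364, and -2.29, adjusted p = 0.0339). Without the libraries that stood apart the difference from monocytes passed (-1.74, adjusted p = 0.0328) and that from the peritoneum did not (-1.29, adjusted p = 0.158).

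Among the endosomal receptors, Tlr9 (chr9:106222598-106226876, plus strand), which binds unmethylated CpG DNA, differed most in both comparisons with the peritoneum, though not between the aorta and monocytes. It ran from 101 to 266 CPM (median 127) in monocytes, from 4.51 to 127 CPM (median 41.99) in the aorta and from 0 to 25.02 CPM (median 2.33) in the peritoneum. Even the highest peritoneal library lay below the lowest monocyte library. The peritoneum was below monocytes (log2 fold change -5.56 ± 0.29, adjusted p = 1.54e-14) and below the aorta (log2 fold change 3.98 ± 0.59, adjusted p = 5.81e-06, aorta against peritoneum), and the aorta was below monocytes (log2 fold change -1.72 ± 0.27, adjusted p = 1.36e-05).

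Tlr13 (chrX:106143275-106160493, plus strand), which binds bacterial ribosomal RNA in the mouse, ran from 439 to 920.2 CPM (median 669) in monocytes, from 151 to 470.1 CPM (median 369.6) in the peritoneum and from 3.43 to 307 CPM (median 176) in the aorta. All aortic libraries lay below all monocyte libraries. The aorta was lower than monocytes (log2 fold change -2.09 ± 0.31, adjusted p = 4.99e-06) and than the peritoneum (log2 fold change -1.29 ± 0.31, adjusted p = 0.00185), and the peritoneum was lower than monocytes (log2 fold change -0.70 ± 0.12, adjusted p = 2.57e-05), the last of which missed the threshold in the fit of all 36 libraries (-0.67, adjusted p = 0.0513).

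Tlr7 (chrX:167303380-167330574, minus strand) and Tlr8 (chrX:167241123-167264329, minus strand), neighbours on the X chromosome whose products bind single-stranded RNA and its fragments, were abundant everywhere. Tlr7 ran from 627 to 914 CPM (median 805) in monocytes, from 176 to 660.2 CPM (median 505) in the aorta and from 204 to 365 CPM (median 263) in the peritoneum. Monocyte and peritoneal libraries did not overlap (log2 fold change -1.38 ± 0.07, adjusted p = 1.35e-14), and the aorta lay between, below monocytes (log2 fold change -0.77 ± 0.14, adjusted p = 1.02e-04) and above the peritoneum (log2 fold change 0.72 ± 0.15, adjusted p = 4.32e-04). Tlr8 ran from 141 to 540.0 CPM (median 302) in the aorta, from 190.4 to 416 CPM (median 279) in monocytes and from 90.3 to 234 CPM (median 172) in the peritoneum. It was higher in the aorta (log2 fold change 0.86 ± 0.16, adjusted p = 1.27e-04) and in monocytes (log2 fold change -0.56 ± 0.11, adjusted p = 9.93e-05, peritoneum against monocytes) than in the peritoneum, and was not called between the aorta and monocytes (log2 fold change 0.19 ± 0.15, adjusted p = 0.417).

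Tlr3, the receptor for double-stranded RNA, was the scarcest endosomal member in monocytes. It ran from 2.02 to 10.6 CPM (median 7.05) there, from 15.6 to 37.2 CPM (median 25.4) in the peritoneum and from 0 to 79.3 CPM (median 34.4) in the aorta, where early library 2 had no read. Every peritoneal library lay above every monocyte library (log2 fold change 2.17 ± 0.18, adjusted p = 1.73e-10). The aorta was also above monocytes (log2 fold change 2.26 ± 0.53, adjusted p = 0.00151) and differed from the peritoneum by 0.21 ± 0.43 (adjusted p = 0.807), which did not pass.

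Counted together, 7 of the 10 members passed between the aorta and monocytes, 4 higher and 3 lower, where 29.7% of 10696 genes, 14.1% higher and 15.7% lower, passed. Between the aorta and the peritoneum 7 passed, 6 higher and 1 lower (26.8% of 10698 genes, 14.9% higher and 11.9% lower), and between the peritoneum and monocytes all 10 did, 2 higher and 8 lower (67.0% of 10343 genes, 32.5% higher and 34.6% lower). The members' median log2 fold changes were 0.16, 0.79 and -0.63, beside -0.12, 0.01 and -0.02 over all genes tested. None of the 24 calls turned direction in any alternative fit that was run.

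**Figure D2:**
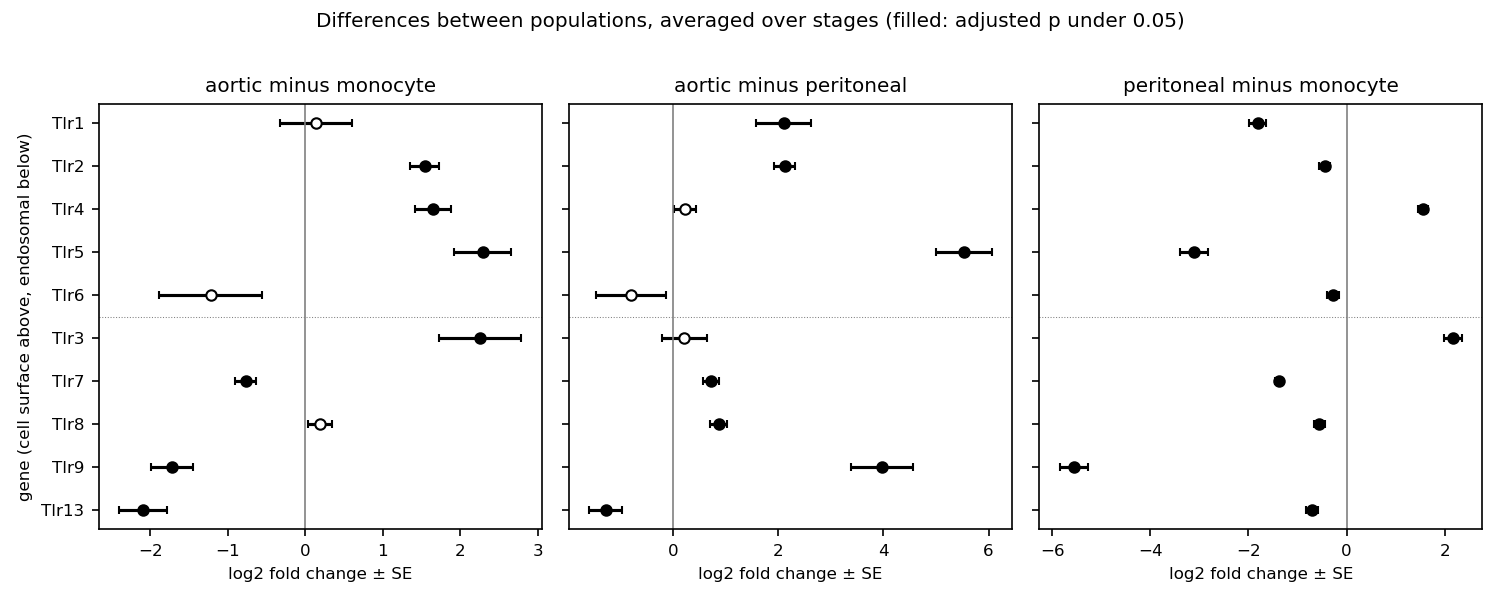
Log2 fold change ± SE of each gene (rows, surface receptors above the dotted line, endosomal below) between pairs of populations, averaged over the stages. Filled points passed an adjusted p under 0.05, and the scales of the 3 panels differ. Tlr5 and Tlr9 lie farthest from 0 in both panels that include the peritoneum.

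Levels of different genes were compared per kilobase of the longest coding transcript. In monocytes Tlr7 (202 ± 25.4 CPM per kb, mean ± SD, n = 12) and Tlr13 (164 ± 30.6) led, with overlapping spreads. Spread here is the SD over the 12 libraries of a population, which come from 3 stages. Genes were not compared within the same library, so overlapping spreads do not show equal levels. Tlr8 (83.2 ± 18.2), Tlr9 (45.3 ± 16.9) and Tlr2 (34.6 ± 7.61) followed, the last 2 within their spread of each other, then Tlr1 (19.4 ± 5.199), Tlr4 (16.1 ± 5.52), Tlr6 (8.99 ± 2.05), Tlr5 (3.64 ± 1.17) and Tlr3 (1.46 ± 0.671). Of these lower members, Tlr1 and Tlr4, and Tlr4 and Tlr6, lay within their spread. In the peritoneum the order was Tlr13 (88.9 ± 24.6), Tlr7 (68.4 ± 14.2), Tlr8 (49.5 ± 12.6) and Tlr4 (41.1 ± 8.13), each within the spread of the next, then Tlr2 (22.1 ± 3.43), with Tlr6 (6.42 ± 1.76), Tlr3 (5.83 ± 1.51), Tlr1 (4.89 ± 2.18), Tlr9 (1.27 ± 2.02) and Tlr5 (0.359 ± 0.258) below it, where again each neighbour was within the spread. Aortic macrophages ran from Tlr7 (121 ± 39.99), Tlr2 (104 ± 45.1) and Tlr8 (96.6 ± 35.5) through Tlr4 (49.4 ± 24.3), Tlr13 (41.3 ± 21.1), Tlr1 (21.4 ± 14.9), Tlr5 (17.5 ± 9.44) and Tlr9 (14.6 ± 9.82) to Tlr3 (7.43 ± 4.83) and Tlr6 (4.801 ± 8.07), and no neighbours in that order were separated by more than their spread. The 5 endosomal receptors made up 82.5 to 88.2% of the summed level per kilobase in the 12 monocyte libraries, 66.3 to 77.1% in the peritoneal and 24.8 to 72.9% in the aortic ones. The lowest aortic share was a baseline library, and no other aortic library fell under 52.25%.

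**Figure D3:**
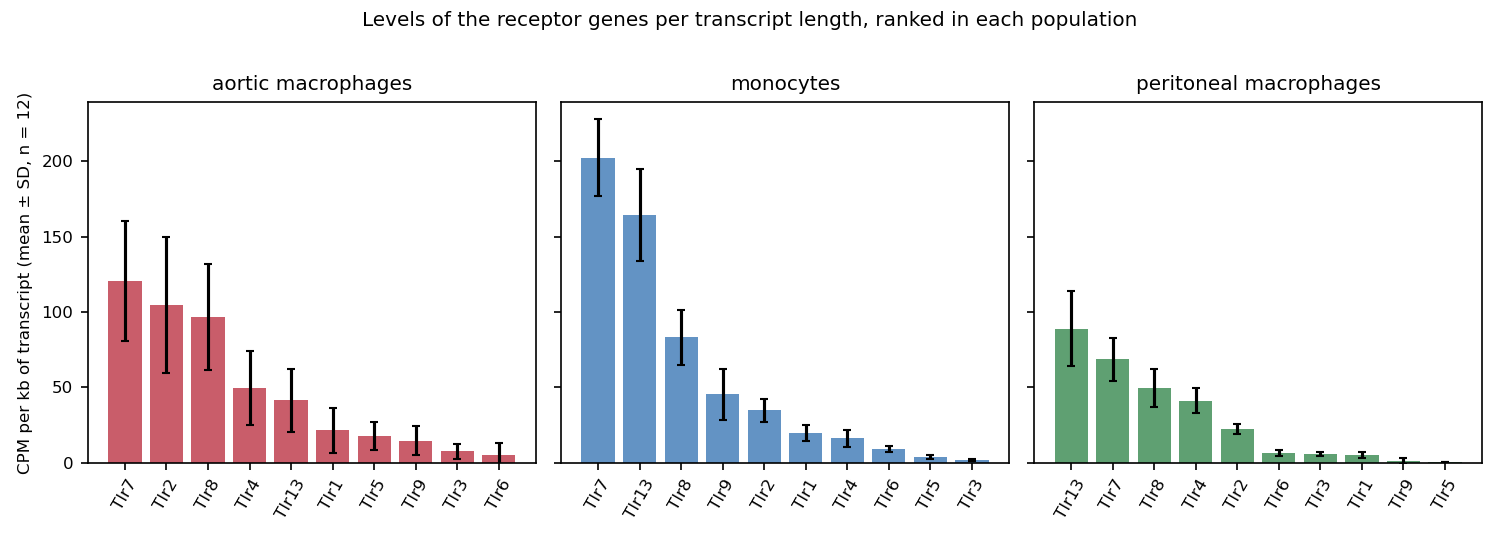
Mean CPM per kilobase of transcript ± SD (n = 12 libraries) of the 10 genes, ranked within each population. Tlr7 leads in aortic macrophages and monocytes and Tlr13 in peritoneal macrophages, while Tlr2 follows Tlr7 in the aorta.

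Partner genes of the receptors were described from 4 lists: co-receptors and chaperones (10 genes), adaptors and kinases (18), transcription factors (6) and brakes on the signal (10). Between the peritoneum and monocytes, 67.0% of 10343 genes passed, 32.5% higher and 34.6% lower. Of the co-receptors and chaperones, 6 were higher and 2 lower. They included Cd14, which presents lipopolysaccharide to TLR4 (284 ± 65.6 against 36.9 ± 11.8 CPM, log2 fold change 3.14 ± 0.15, adjusted p = 1.75e-15), the scavenger receptor Cd36 (log2 fold change 3.53 ± 0.23, adjusted p = 9.30e-13) and the chaperone Hsp90b1 (log2 fold change 1.14 ± 0.09, adjusted p = 2.63e-11). Of the adaptors and kinases 4 were higher and 10 lower, with Ikbkb (log2 fold change -1.19 ± 0.08, adjusted p = 1.47e-12), Tab2 (log2 fold change -1.29 ± 0.09, adjusted p = 1.64e-12) and the shared adaptor Myd88 (log2 fold change -1.29 ± 0.09, adjusted p = 3.61e-12) among the lower. All 6 transcription factors were lower, led by Nfkb1 (log2 fold change -1.39 ± 0.06, adjusted p = 1.82e-16), Irf5 (log2 fold change -1.24 ± 0.08, adjusted p = 6.03e-13) and Irf8 (log2 fold change -1.97 ± 0.15, adjusted p = 1.69e-11), and of the 8 brakes tested 1 was higher and 6 lower. The call of Irf3 (log2 fold change -0.28 ± 0.11, adjusted p = 0.0299), counted among the 6, was lost in 6 of 9 other settings and 6 of 24 fits that left a library out. The lists' medians were 0.66, -0.46, -1.32 and -0.72, beside -0.02 over all genes.

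Between the aorta and monocytes, 29.7% of 10696 genes passed, 14.1% higher and 15.7% lower. Against monocytes, aortic macrophages had 4 higher and 3 lower co-receptors and chaperones, with Cd14 (597 ± 299 against 36.9 ± 11.8 CPM, log2 fold change 3.91 ± 0.19, adjusted p = 6.43e-15) and Cd36 (log2 fold change 3.30 ± 0.28, adjusted p = 3.26e-10) again higher. Lower were 7 adaptors and kinases, with 1 higher, and 4 of 6 transcription factors, among them Irf7 (log2 fold change -1.87 ± 0.20, adjusted p = 1.98e-08) and Irf5 (log2 fold change -1.14 ± 0.13, adjusted p = 1.36e-07), which act downstream of the endosomal receptors. The brake Tnfaip3, which encodes the ubiquitin-editing enzyme A20, was higher (log2 fold change 2.32 ± 0.31, adjusted p = 1.19e-06). Of the 9 brakes tested, 3 were called lower: Irak3 (log2 fold change -0.61 ± 0.23, adjusted p = 0.0463), Socs1 (log2 fold change -2.44 ± 0.71, adjusted p = 0.01) and Sigirr (log2 fold change -2.48 ± 0.88, adjusted p = 0.0355). Sigirr and Socs1 were scarce, at 4.86 ± 9.57 against 4.11 ± 2.88 CPM and 1.96 ± 3.47 against 2.79 ± 1.65 CPM. The mean of Sigirr in the aorta was above that in monocytes, while its fitted value was negative. The Sigirr call was lost in 5 of 8 other settings and 9 of 24 fits that left a library out, and that of Irak3 in 4 of 9 and 20 of 24. The 1 higher adaptor, Tab3, was not called without the libraries that stood apart, against monocytes (0.50, adjusted p = 0.279) or against the peritoneum (0.66, adjusted p = 0.193). Between the aorta and the peritoneum, 26.8% of 10698 genes passed, 14.9% higher and 11.9% lower. Against the peritoneum, 3 co-receptors were higher in the aorta and 2 lower, with Lbp, the lipopolysaccharide binding protein, at 1.79 ± 2.86 against 114 ± 41.1 CPM (log2 fold change -7.75 ± 0.58, adjusted p = 1.32e-10). Adaptors and kinases gave 4 higher and 1 lower, transcription factors 1 higher (Nfkb1, log2 fold change 0.82 ± 0.15, adjusted p = 1.04e-04) and brakes 2 higher of 8, Tnfaip3 (log2 fold change 4.31 ± 0.34, adjusted p = 7.19e-11) and Pik3ap1 (log2 fold change 1.87 ± 0.25, adjusted p = 1.30e-06). Medians of the 4 lists were 0.21, -0.51, -0.92 and -0.44 against monocytes, beside -0.12 over all genes, and -0.07, 0.13, 0.20 and 0.22 against the peritoneum, beside 0.01.

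The stages were compared in 1 population at a time, with its 12 libraries fitted together. Baseline libraries were also the deepest, so a difference from baseline cannot be assigned to the diet. In monocytes the member that differed most was Tlr9, which was lower in both diet groups than at baseline. It stood at 215, 266, 241 and 209.8 CPM at baseline, 121, 119, 156 and 132 CPM at the early stage and 103, 123, 101 and 106 CPM at the advanced stage. Both diet groups lay wholly below baseline and overlapped each other. Tlr9 fell from 233 ± 25.8 CPM to 132 ± 16.9 CPM (SD, n = 4) at the early stage (log2 fold change -0.80 ± 0.10, adjusted p = 4.69e-04) and to 108 ± 10.05 CPM at the advanced stage (log2 fold change -1.06 ± 0.11, adjusted p = 9.78e-05), both against the same baseline libraries. It differed by -0.27 ± 0.11 (adjusted p = 0.218) between advanced and early, which did not pass. Leaving out each of the 12 libraries kept both calls, at -0.90 to -0.73 and at -1.10 to -1.01. After all libraries were thinned to the shallowest total, the values were -0.67 (adjusted p = 0.00324) and -0.96 (adjusted p = 2.65e-04). In the fit of all 36 libraries, which takes its spread from the aortic libraries as well, neither passed (-0.79, adjusted p = 1, and -1.04, adjusted p = 1).

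Markers of other cell types also differed between the monocyte sorts. The 7 neutrophil markers in the files, of 8 listed, summed to 177 to 464 CPM at baseline, 2743 to 10584 CPM at the early stage and 3679 to 28552 CPM at the advanced stage, with none at 0 in any monocyte library. The 6 conventional dendritic cell markers summed to 79.96 to 119 CPM, 88.8 to 133 CPM and 34.4 to 54.5 CPM, and up to 3 were at 0 in an advanced library. The 6 plasmacytoid dendritic cell markers summed to 129.9 to 279 CPM, 225 to 604 CPM and 139 to 208 CPM. For the 5 B cell markers, of 6 listed, the sums were 13.8 to 40.2 CPM, 32.7 to 129 CPM and 10.7 to 18.5 CPM. The 6 T and NK cell markers summed to 9.72 to 34.6 CPM at baseline, 41.6 to 842 CPM at the early stage and 9.44 to 29.7 CPM at the advanced stage. Neutrophil markers were thus above baseline at both later stages, T and NK cell markers at the early stage without overlap, and conventional dendritic cell markers were lower at the advanced stage only. Their part in the fall of Tlr9, and in the values of Tlr7 and Tlr13, was not tested. Without monocyte advanced library 3, which had the highest neutrophil sum, the log2 fold change of Tlr9 against baseline was -1.05, adjusted p = 2.80e-04. The remaining advanced libraries still held neutrophil markers at 3679 CPM or more, against 177 to 464 CPM at baseline. That fit therefore does not bear on the part of these markers.

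Tlr9 was the only member called between early and baseline monocytes, where 10.8% of 9465 genes, 5.74% higher and 5.07% lower, passed. At an unadjusted p under 0.05 there were 5 members. Here and below, the share of all genes at that looser threshold is not given, so such counts have no background beside them. Tlr7 stood at 893, 877, 887 and 914 CPM at baseline and 729, 627, 794 and 695 CPM at the early stage, and the groups did not overlap (log2 fold change -0.30 ± 0.10, adjusted p = 0.0724). Tlr13 stood at 745, 748, 727 and 920.2 CPM and 569.8, 439, 668 and 614 CPM, again without overlap (log2 fold change -0.43 ± 0.15, adjusted p = 0.0673). Neither passed, but both did with DESeq2 (adjusted p = 0.024 and adjusted p = 0.0345) and without early library 3 (-0.38, adjusted p = 0.0282, and -0.54, adjusted p = 0.0314). At the advanced stage both genes again lay wholly below baseline, at -0.19 ± 0.10 (adjusted p = 0.219) and -0.26 ± 0.15 (adjusted p = 0.241). Between advanced and early monocytes edgeR called 0 of 10 members (2.05% of 9465 genes, 0.676% higher and 1.37% lower, passed), as did DESeq2, with 4 at an unadjusted p under 0.05.

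Between advanced and baseline monocytes, where 19.0% of 9465 genes, 9.24% higher and 9.75% lower, passed, Tlr9 was lower and Tlr4 higher. Tlr4 stood at 56.1, 50.3, 63.6 and 53.2 CPM at baseline and 135, 58.3, 71.8 and 64.6 CPM at the advanced stage. Advanced library 1 was far above the others, and advanced library 2 lay within the baseline range. The call (log2 fold change 0.63 ± 0.20, adjusted p = 0.0401) was lost in 8 of 12 fits that left a library out (baseline 1, 2 or 4, early 1, 3 or 4, advanced 1 or 3), with values of 0.27 to 0.79 over the 12 fits and adjusted p up to 0.183, and it was lost with limma-voom (0.47, adjusted p = 0.0591) and without the libraries that stood apart (0.68, adjusted p = 0.0573). Advanced library 1 was also highest of its group for Tlr1, Tlr3, Tlr5, Tlr6, Tlr8 and Tlr13.

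Several partner genes were lower in advanced than in baseline monocytes, where 19.0% of 9465 genes passed, 9.24% higher and 9.75% lower. Of the co-receptors and chaperones 3 of 10 were lower and 0 higher: Cd180, a relative of TLR4 (162 ± 36.1 against 278 ± 19.8 CPM, log2 fold change -0.75 ± 0.12, adjusted p = 9.09e-04), Unc93b1 (415 ± 38.7 against 653 ± 78.2 CPM, log2 fold change -0.61 ± 0.12, adjusted p = 0.00339) and Cnpy3 (log2 fold change -0.39 ± 0.12, adjusted p = 0.0396). Transcription factors gave 4 lower of 6, including Irf5 (269 ± 30.8 against 454 ± 34.8 CPM, log2 fold change -0.70 ± 0.11, adjusted p = 9.46e-04), Irf8 (log2 fold change -0.79 ± 0.15, adjusted p = 0.00282) and Rela (log2 fold change -0.65 ± 0.13, adjusted p = 0.00329). Of 18 adaptors and kinases 4 were lower, among them Tab3 (log2 fold change -0.55 ± 0.17, adjusted p = 0.0343), Tab1 (log2 fold change -1.28 ± 0.39, adjusted p = 0.0345) and Irak1 (log2 fold change -0.31 ± 0.10, adjusted p = 0.0392), and of 8 brakes tested Pik3ap1 was lower (log2 fold change -0.47 ± 0.14, adjusted p = 0.0331). Medians were -0.10, -0.64, -0.17 and -0.15 in that order, beside -0.01 over all genes. Cd180, Unc93b1, Irf5, Irf8 and Rela kept their calls in all 12 fits that left a library out, while Cnpy3, Tab3, Tab1, Irak1 and Pik3ap1 each lost theirs in 4 to 8 of them, and the fit of all 36 libraries called none of these genes. Without the libraries that stood apart, Tab1 was still called (-1.56, adjusted p = 0.0388), while Cnpy3 (-0.34, adjusted p = 0.118), Tab3 (-0.47, adjusted p = 0.111), Irak1 (-0.27, adjusted p = 0.12), Pik3ap1 (-0.37, adjusted p = 0.111), Tab2 (-0.36, adjusted p = 0.11) and the transcription factor Irf7 (-0.59, adjusted p = 0.0709) were not. Between early and baseline, Cd180 (log2 fold change -0.48 ± 0.12, adjusted p = 0.0185), Irf5 (log2 fold change -0.55 ± 0.11, adjusted p = 0.00656), Tirap (log2 fold change -0.65 ± 0.14, adjusted p = 0.00859) and Tab2 (log2 fold change -0.45 ± 0.12, adjusted p = 0.03) were lower. None of these 4 was called in the fit of all 36 libraries, Cd180 and Tirap lost their calls in the thinned counts, and Cd180 lost its call without early library 2 and Tab2 without baseline 4, early 2 or early 4. Between advanced and early, Irf8 alone was lower (log2 fold change -0.94 ± 0.16, adjusted p = 0.00999). The same marker sums accompany these values, and their part was not tested.

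**Figure D4:**
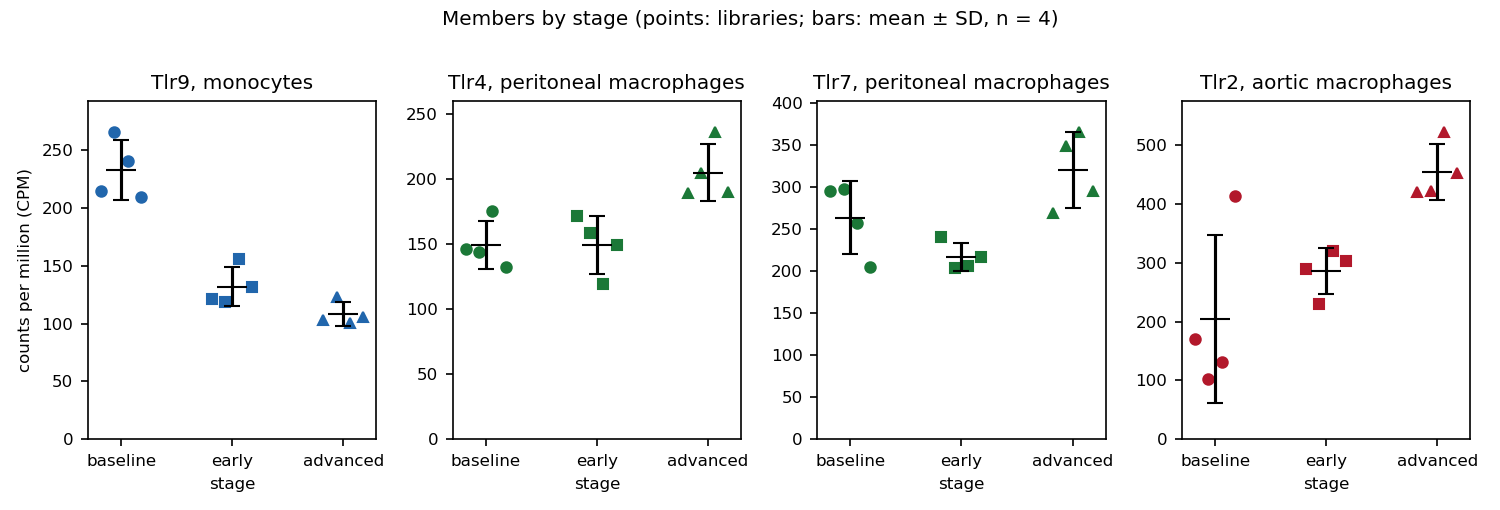
CPM by stage of Tlr9 in monocytes, Tlr4 and Tlr7 in peritoneal macrophages, and Tlr2 in aortic macrophages. Points are libraries and bars the mean ± SD (n = 4). All 8 diet libraries lie below baseline for Tlr9, and the advanced libraries lie above baseline for Tlr4 in the peritoneum and for Tlr2 in the aorta, where baseline library 4 at 415 CPM is just below them.

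In peritoneal macrophages, Tlr4 and Tlr7 were highest at the advanced stage. Tlr4 stood at 146, 144, 176 and 132 CPM at baseline, 171, 158, 119 and 149 CPM at the early stage and 189, 204, 236 and 189 CPM at the advanced stage. The advanced libraries lay above all others, and baseline and early overlapped. Tlr4 was the only member called between advanced and baseline (205 ± 21.95 against 149 ± 18.5 CPM, log2 fold change 0.54 ± 0.11, adjusted p = 0.0471), where 0.898% of 9575 genes, 0.512% higher and 0.386% lower, passed. At an unadjusted p under 0.05 there were 3 of 8 members tested, with no share of all genes beside them. Against the early stage Tlr4 missed the threshold (log2 fold change 0.50 ± 0.12, adjusted p = 0.0528), which it passed with DESeq2 (0.50, adjusted p = 0.00289) and limma-voom (0.56, adjusted p = 0.0178). The advanced against baseline call was lost in 9 of 12 fits that left a library out (any of the 8 baseline and advanced libraries, or early 4), with adjusted p up to 0.193 and values of 0.46 to 0.60 over the 12 fits, and in the thinned counts (0.56, adjusted p = 0.105).

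Tlr7 stood at 295, 298, 257 and 205 CPM at baseline, 240.4, 204, 206 and 216 CPM at the early stage and 269, 349, 365 and 295 CPM at the advanced stage. The advanced libraries lay above the early ones, and the baseline range overlapped both. Tlr7 was the only member called between advanced and early (319.8 ± 45.1 against 217 ± 16.6 CPM, log2 fold change 0.60 ± 0.13, adjusted p = 0.0424), where 1.33% of 9575 genes, 0.522% higher and 0.804% lower, passed. At an unadjusted p under 0.05 there were 4 members, with no share of all genes beside them. The Tlr7 call was lost in 7 of 12 fits that left a library out (baseline 1, 2 or 3, early 2, advanced 2, 3 or 4), with adjusted p up to 0.16, and without the libraries that stood apart (0.57, adjusted p = 0.0936). Against baseline Tlr7 differed by 0.36 ± 0.13 (adjusted p = 0.186), which did not pass except with limma-voom (0.33, adjusted p = 0.0298).

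edgeR called no other peritoneal member between stages in the fit of the 12 libraries. Tlr3 stood at 19.4, 15.6, 17.5 and 22.8 CPM at the early stage and 30.6, 37.2, 25.1 and 25.8 CPM at the advanced stage, without overlap (log2 fold change 0.69 ± 0.19, adjusted p = 0.085), and DESeq2 called it (0.70, adjusted p = 0.0367). Tlr13 stood at 432, 456, 466 and 470.1 CPM at baseline and 244, 151, 329 and 385 CPM at the early stage, also without overlap (log2 fold change -0.67 ± 0.24, adjusted p = 0.141), and the 2 lowest values belong to early libraries 1 and 2, which stood apart. Between early and baseline edgeR and DESeq2 called 0 of the 8 members tested (1.79% of 9575 genes, 1.37% higher and 0.418% lower, passed with edgeR). At an unadjusted p under 0.05 there were 2 members, with no share of all genes beside them. Tlr8 differed by 0.60 ± 0.19 (adjusted p = 0.115) between advanced and early and by 0.53 ± 0.18 (adjusted p = 0.173) between advanced and baseline, and limma-voom called both (0.69, adjusted p = 0.0299, and 0.44, adjusted p = 0.0291). Tlr1, Tlr2 and Tlr6 had log2 fold changes of -0.70 to 0.39 over the 3 comparisons. Tlr5 and Tlr9 had too few reads to be tested in this fit.

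Of the peritoneal partner genes, Ly96, which encodes the MD-2 subunit of the TLR4 complex, rose with the advanced stage (43.5 ± 0.938 against 24.7 ± 3.098 CPM, log2 fold change 0.90 ± 0.12, adjusted p = 0.0074). It was the only one of 10 co-receptors and chaperones called there, where 0.898% of 9575 genes passed. The call was lost without advanced library 3 or 4 (adjusted p up to 0.0652), in the thinned counts and in the fit of all 36 libraries. Tnfaip3 was higher at the early stage than at baseline (log2 fold change 1.25 ± 0.28, adjusted p = 0.0399) and lower at the advanced than at the early stage (log2 fold change -1.31 ± 0.30, adjusted p = 0.0497). Both calls were lost in 8 or more of 12 fits that left a library out, early library 2 among them. No adaptor, kinase or transcription factor of the lists was called in the peritoneum by edgeR at an adjusted p under 0.05. At an unadjusted p under 0.05 there were 1 to 5 per list and comparison, with no share of all genes beside them.

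In aortic macrophages no member passed between stages with edgeR or DESeq2 on the 12 aortic libraries, while the fit of all 36 libraries called 2 for early against baseline (Tlr7 and Tlr8) and 4 for advanced against baseline (Tlr2, Tlr7, Tlr8 and Tlr13). At an adjusted p under 0.05, 0.373% of 9920 genes (0.312% higher and 0.0605% lower) passed between early and baseline. Between advanced and early 0.0403% passed (0.0302% higher and 0.0101% lower), and between advanced and baseline 0.585% (0.534% higher and 0.0504% lower). At an unadjusted p under 0.05 there were 2, 1 and 4 members in the same order. The share of all genes at that looser threshold is not given, so these counts have no background beside them. The biological coefficient of variation, the spread between libraries that edgeR estimates beside counting error, was 110% in the aorta, against 19.1% in monocytes and 21.2% in the peritoneum. In the population comparisons it was 78.6% for the aorta with monocytes and 78.7% for the aorta with the peritoneum. Tlr2 stood at 170.1, 102, 131 and 415 CPM at baseline, 289.7, 229, 321 and 304 CPM at the early stage and 421, 422, 523 and 452 CPM at the advanced stage. The advanced libraries lay above all of the others, and 3 of 4 baseline libraries lay below all of the early ones. The difference between advanced and baseline was 1.22 ± 0.39 (adjusted p = 0.165), and between advanced and early 0.67 ± 0.38 (adjusted p = 1). The difference from baseline passed without baseline library 4 (1.92, adjusted p = 4.95e-04), without the libraries that stood apart (1.98, adjusted p = 0.00273), with limma-voom (1.91, adjusted p = 0.00382) and in the fit of all 36 libraries (1.23, adjusted p = 0.00367).

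Tlr8 stood at 292, 291, 141 and 148 CPM at baseline, 289.7, 274, 412 and 540.0 CPM at the early stage and 498, 377, 312 and 401 CPM at the advanced stage. Advanced and baseline libraries did not overlap (log2 fold change 1.00 ± 0.32, adjusted p = 0.178). Tlr9 stood at 41.98, 71.9, 72.9 and 12.003 CPM, 39.6, 21.3, 31.95 and 4.51 CPM and 127, 41.999, 67.4 and 77.4 CPM in the same order, with early below advanced throughout (log2 fold change 1.70 ± 0.82, adjusted p = 1). Tlr3 stood at 6.61, 0, 22.8 and 31.6 CPM at the early stage and 51.2, 38.7, 37.9 and 43.8 CPM at the advanced stage, without overlap (log2 fold change 1.44 ± 1.12, adjusted p = 1). The remaining aortic members overlapped between all stages. Baseline library 4 was highest of its group for Tlr1, Tlr2, Tlr3, Tlr4 and Tlr6 and lowest for Tlr5, Tlr7, Tlr9 and Tlr13. The 7 fibroblast markers summed to 8.89 to 287 CPM at baseline, 510.1 to 1058 CPM at the early stage and 140.2 to 379 CPM at the advanced stage, and their part in the aortic values was not tested.

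Cd14, the co-receptor of TLR4 and of the TLR2 dimers, was the only partner gene called between stages in the aorta. It rose from baseline to the advanced stage (952 ± 179 against 333 ± 138 CPM, log2 fold change 1.60 ± 0.30, adjusted p = 0.0131) and kept the call in all 8 other settings, but lost it without baseline library 1 or 2 or advanced library 3 (adjusted p up to 0.0595). Between advanced and early it differed by 0.91 ± 0.30 (adjusted p = 0.88).

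Whether peritoneal macrophages and monocytes differed in their changes between stages, called responses here, was tested as the difference of their stage changes. Tlr9 was called for early against baseline (log2 fold change 3.35 ± 0.62, adjusted p = 0.00458), where 2.78% of 10343 genes, 2.27% higher and 0.512% lower, passed. The peritoneal side of this rests on few reads: 32, 18, 34 and 2 at baseline, then 20, 64, 6 and 3 early, then 0, 5, 0 and 2 advanced. That is 2.71, 1.95, 3.33 and 0.1397 CPM, 9.71, 25.02, 4.57 and 1.59 CPM and 0, 3.001, 0 and 0.904 CPM. Early libraries 1 and 2 were high, and the other 2 lay near or within the baseline range. Without early library 2 the difference was 2.37 (adjusted p = 0.104), and without the libraries that stood apart it did not pass (adjusted p = 0.604). The same 2 libraries had summed conventional dendritic cell markers of 142 and 456 CPM, against 23.6 and 18.01 CPM in the other early libraries, 7.83 to 21.9 CPM at baseline and 20.8 to 71.9 CPM at the advanced stage. All 6 markers are in the files, and in early libraries up to 4 were at 0. Tlr11, which is not expressed as a working protein in humans and binds profilin in the mouse, was at 5.83 and 13.3 CPM in early libraries 1 and 2. It was at 0.762 and 1.06 CPM in the other early libraries. Its peritoneal reads were 6, 6, 4 and 7 at baseline and 12, 34, 1 and 2 early. Its difference in response of 3.68 ± 0.84 (adjusted p = 0.0192) was also lost without early library 2. In the peritoneal libraries alone neither Tlr9 nor Tlr11 had enough reads to be tested. Both entered this comparison through their monocyte reads. The part of dendritic cells or of other cell types in these values was not tested. For the other steps edgeR called 0 of 10 members at an adjusted p under 0.05. At that threshold 1.25% of 10343 genes (0.280% higher and 0.967% lower) passed for advanced against early. For advanced against baseline 2.30% passed (0.609% higher and 1.69% lower). At an unadjusted p under 0.05, where the share of all genes is not given, there were 4 and 2 members. DESeq2 called 0 and 1 (Tlr7, 0.56, adjusted p = 0.0309).

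**Figure D5:**
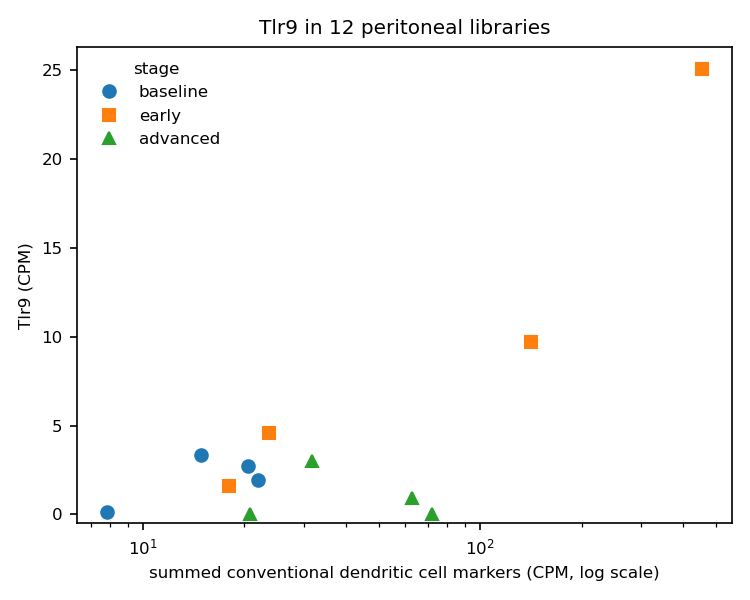
Tlr9 (CPM) against the summed CPM of 6 conventional dendritic cell markers (log scale) in the 12 peritoneal libraries, by stage. Early libraries 1 and 2 are at 142 and 456 CPM of the markers and 9.71 and 25.0 CPM of Tlr9, and all other libraries hold at most 4.57 CPM of Tlr9.

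The genes whose pattern over the 36 libraries was most like each member were taken by Pearson's r of log2(CPM + 1) among 9403 genes. These are descriptions over libraries that share populations and depth. Tlr13 was most like Soat1 (r = 0.961), Cdc42se1 (0.937) and Taldo1 (0.920), and Tlr9 most like Prex1 (0.950), Coro1a (0.945) and Fam129a (0.938). Tlr2 was most like Ifrd1 (0.945), Rasgef1b (0.926) and Nlrp3 (0.922), and Tlr4 most like Mgat4a (0.912), Ctsl (0.879) and Mill2 (0.873). For Tlr7 the nearest were Ms4a6c (0.883), Rnf149 (0.877) and Lst1 (0.875), for Tlr5 Ehd4 (0.901), Ptms (0.898) and Marcks (0.894), and for Tlr6 Cmas (0.903), Xylt1 (0.825) and Coa5 (0.816). Tlr1, Tlr8 and Tlr3 had their nearest in Mxd1 (0.875), Map3k2 (0.827) and Ltbp3 (0.800). Among the members themselves, the closest pair within monocytes was Tlr7 and Tlr13 (Spearman's rho 0.92 over 12 libraries), within the peritoneum Tlr7 and Tlr8 (0.87) and within the aorta Tlr1 and Tlr6 (0.84), the pair that shares sequence.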

How the data were processed

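The RNA libraries (Ovation SoLo kit, NextSeq500, per the labels' protocols) were deposited by the authors as whole-number read counts per gene. The submitters' processing notes name STAR, featureCounts and mm10, and their versions and the use of strand are not given in the sources used here. Counts were divided by library totals to give CPM. Tests used edgeR 4.0.16 (R 4.3.3) with TMM scaling, filterByExpr (minimum count 10), quasi-likelihood fits and Benjamini-Hochberg adjustment over all genes at 0.05, two-sided. The code was checked on simulated counts. Stage comparisons were fitted on the 12 libraries of a population, and population and response comparisons on the 24 of 2 populations. Alternatives were DESeq2 1.42.0, its size factors in edgeR, limma-voom (limma 3.58.1), no count filter, thinning to 942899 reads, a replicate block, all 36 libraries in 1 fit and leaving out each library. Leaving out the 6 libraries that stood apart was added after seeing the data. All 10 members are named throughout, and from each partner list up to 3 called genes with the smallest p. The members and lists were chosen with earlier results of these data known. The genes most like a member were sought among those with a mean of at least 5 CPM, without predicted or mitochondrial genes.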

Additional observations from a re-analysis of the deposited data

Results flagged for a closer look

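In 5 of 90 groups of 4 libraries 1 library lay apart from the other 3, with a gap over the range above Dixon's critical value, and chance gives about 1 in 20 groups. Tlr1 was high in aortic advanced library 1 (112 CPM against 64.5 to 70.0 CPM, gap over range 0.884) and in monocyte advanced library 1 (101 CPM against 56.4 to 62.5 CPM, 0.864). Tlr8 was low in peritoneal baseline library 4 (90.3 CPM against 174 to 184 CPM, 0.891). Tlr13 was high in aortic early library 2 (289 CPM against 153 to 175 CPM, 0.835) and in monocyte baseline library 4 (920.2 CPM against 727 to 748 CPM, 0.890).

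The early response of Tlr9 differed between peritoneal macrophages and monocytes by 3.35 on the log2 scale, by the test of the difference itself, and this was lost without peritoneal early library 2.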

How the results depend on the processing

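Of 30 calls of members, DESeq2 kept 29, its size factors in edgeR 29, no count filter 28, thinning 28, limma-voom with quality weights 27, omission of the libraries that stood apart 27, the replicate block 26 and the fit of all 36 libraries 21. With 1 voom weight per population 22 of 24 were kept. No call reversed. Members called were 7 to 8 between aorta and monocytes, 7 between aorta and peritoneum and 7 to 10 between peritoneum and monocytes over these settings. Counts that moved by more than 1.5 times were as follows. DESeq2 gave 3 for early against baseline monocytes, 3 for advanced against early peritoneal macrophages and 1 for the advanced against baseline response. No count filter gave 2 in each of the first and second of these comparisons, and 0 for advanced against baseline peritoneal macrophages. Voom gave 1 for advanced against baseline aorta, 2 and 1 for early and advanced against baseline monocytes, 3 and 3 for advanced peritoneum against early and baseline, and 0 and 1 for the early and advanced responses. Without the libraries that stood apart the aorta gave 1, monocytes 1, advanced against early peritoneum 0 and the early response 0. Thinning gave 0 for advanced against baseline peritoneum. The fit of all 36 libraries gave 2 and 4 for early and advanced against baseline aorta, and 0 for both in monocytes, for the 2 advanced peritoneal comparisons and for the early response. Leaving out each library gave 0 to 1 for early and advanced against baseline aorta, 1 to 3 and 1 to 2 in monocytes, 0 to 1, 0 to 3 and 0 to 1 in the peritoneum, and 0 to 2 and 0 to 1 for the early and the advanced against early responses. The cause of these moves was not tested.

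Over all genes, the numbers called (in the order early against baseline, advanced against early, advanced against baseline) were 37, 4 and 58 in the aorta and reached 2113, 320 and 1816 in the fit of all 36 libraries, which gave 17, 0 and 33 in monocytes against 1023, 194 and 1798, and 3293 against 6933 between peritoneum and monocytes. DESeq2 gave 435 for advanced against early monocytes. In the peritoneum 171, 127 and 86 genes became 43, 39 and 14 with the replicate block and 683, 542 and 467 with DESeq2, and voom gave 1525 for the last. The responses, 288, 129 and 238, fell to 21, 8 and 5 in the fit of all 36 libraries. Too few peritoneal reads of Tlr5 and Tlr9 limited those tests.

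The labels do not tie equal replicate numbers to shared mice. Between stages of a population, deviations of same-numbered libraries correlated at -0.39 to 0.17, and those of other-numbered libraries at -0.29 to 0.29. Whether populations of the same stage share mice was not checked, and the population and response tests treated their libraries as independent. With the replicate block, calls were lost for Tlr4 in monocytes (0.58, adjusted p = 0.0573), Tlr7 and Tlr4 in the peritoneum (0.60, adjusted p = 0.109, and 0.54, adjusted p = 0.109) and Tlr6 between peritoneum and monocytes (-0.27, adjusted p = 0.061). The block thus left 1 member called in advanced against baseline monocytes and 0 in both advanced peritoneal comparisons.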

Other observations

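The files also hold Tlr11 and Tlr12, mouse receptors for profilin that are not among the 10 genes. Mean levels of Tlr11 were 7.45 CPM in the aorta, 7.10 CPM in monocytes and 2.33 CPM in the peritoneum. Those of Tlr12 were 4.17, 2.21 and 0.0148 CPM in the same order. The aortic means rest on few libraries. Tlr11 had no read in 6 of 12 aortic libraries (median 0.810 CPM) and none at 0 in monocytes (median 7.08 CPM). Tlr12 had no read in 8 of 12 aortic libraries (median 0, highest 33.6 CPM) and in 2 of 12 monocyte libraries (median 1.39 CPM).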
